A study of Mus musculus with 9 samples.

Results

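Potassium channel genes were followed in RNA from mouse retina, comparing wild-type mice with db/db mice. The members were all genes whose mouse symbol begins with Kcn and whose mean over the 9 libraries was at least 1 FPKM (fragments per kilobase of exon, scaled to the mapped fragments of the library), leaving out Kcnj8 and Kcnj10. The deposited file listed 35397 genes, of which 98 had such a symbol and 49 were members. All 49 code for protein. Of the rest, 47 lay below 1 FPKM, 5 of them noncoding antisense genes such as Kcnq1ot1. The closest to the limit were Kcnb2 (1.01 FPKM) and Kcnk12 (1.11 FPKM) inside it, and Kcnk4 (0.924 FPKM), Kcnq3 (0.873 FPKM) and Kcna3 (0.827 FPKM) outside it.

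The set held 5 wild-type libraries (wild type 1 to 5) and 4 db/db libraries (db/db 1, 3, 4 and 5). The db mutation disables the leptin receptor throughout the body, not in the retina alone, and homozygous mice become obese and develop diabetes. The labels give the tissue as retina for every library, and give no age, sex, strain background, pooling or blood glucose. Whether the libraries stem from different animals is not stated, and the p-values therefore describe the spread among libraries, part of which may be technical.

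Potassium channels let potassium leave or enter cells down its gradient and so set the resting potential, shape spikes and limit transmitter release. Voltage-gated Kv channels are tetramers that open on depolarization, inward rectifiers (Kir) hold the resting potential, tandem-pore channels carry leak current, and others open with internal calcium or sodium. In photoreceptors the silent subunit Kv8.2 (Kcnv2) joins other Kv subunits in the inner segment, where the channels shape the light response, and human mutations of it cause a cone dystrophy with supernormal rod responses. In Muller glia, Kir channels take up potassium released by neurons.

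The members were joined by their symbol, and the pore is what the pore-forming subfamilies share. The codons of its selectivity filter were therefore sought in the coding sequence of each member. The motif was a codon for threonine or serine, any codon, GGN, a codon for tyrosine or phenylalanine (TAC, TAT, TTC or TTT), and GGN, read in frame on the coding strand. It stood in 40 of 40 members of the pore-forming subfamilies and in 0 of 9 members of the auxiliary families Kcnab, Kcne and Kcnip, against 2.56% of 22527 protein-coding genes. The tandem-pore members Kcnk12, Kcnk3 and Kcnk9 held 2 copies each, and Kcnk1 held 1. The sequences below, 45 bases each with the motif in capitals, are those of abundant members of several subfamilies and of the pore-forming members that the comparison turns on (GENCODE M21 transcripts, build GRCm38).
Kcnv2: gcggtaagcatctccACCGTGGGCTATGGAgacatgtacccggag
Kcna1: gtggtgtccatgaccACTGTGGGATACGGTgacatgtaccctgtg
Kcna6: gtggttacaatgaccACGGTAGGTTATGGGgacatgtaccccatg
Kcnd3: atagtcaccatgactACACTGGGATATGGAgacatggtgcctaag
Kcnh2: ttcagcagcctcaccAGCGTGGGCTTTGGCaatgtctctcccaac
Kcnma1: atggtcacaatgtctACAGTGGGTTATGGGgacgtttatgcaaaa
Kcnt1: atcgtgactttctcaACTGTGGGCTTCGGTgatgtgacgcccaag
Kcnj14: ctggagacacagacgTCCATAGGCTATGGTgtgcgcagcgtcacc
Kcnk1: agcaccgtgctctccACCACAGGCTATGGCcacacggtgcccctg
The stretches of Kcnj14 (chr7:45819618-45819662, minus strand), Kcnma1 (chr14:23528398-23528442, minus strand) and Kcnt1 (chr2:25894352-25894396, plus strand) each lie within 1 coding exon. Those of Kcnv2, Kcnd3 and Kcnk1 are split by an intron. The phenylalanine codon takes the place of the tyrosine codon in Kcnh2 (TTT) and Kcnt1 (TTC). Kcnv2 and the other silent subunits Kcnf1, Kcng4 and Kcns2, which do not form a channel alone, carried the motif too.

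Sequencing depth, recovered from the FPKM steps, lay between 36.6 and 47.9 M reads, and the lowest total for any member in any library was 39.0 reads (Kcnj13). Markers of rods, cones, bipolar, amacrine, ganglion and glial cells were present, and none of the 68 marker genes looked up was at 0 in all libraries. Only 59 of the 68 had a mean of at least 1 FPKM. Library db/db 1 stood apart. It was higher or lower than all 8 others in 71.4% of the 14588 genes tested. Skeletal muscle markers summed to 135 FPKM there against 4.10 to 5.84 FPKM in wild type and 5.62 to 14.6 FPKM in db/db 3, 4 and 5. Pigment epithelium markers summed to 375 FPKM, against 107 to 179 FPKM in wild type and 68.1 to 190 FPKM in the remaining db/db libraries, and amacrine markers to 90.7 FPKM against 118 to 121 FPKM and 120 to 125 FPKM. ON bipolar markers were also low there (148 FPKM, wild type 179 to 197). The sums of ganglion (331 FPKM, wild type 197 to 224), horizontal (20.3, 14.2 to 15.2) and Muller glia markers (1330, 1007 to 1093) were high. The genes within these sums did not move together. Sncg, Nefl, Rbpms, Calb1, Rlbp1, Glul and Apoe were above the wild-type range. Slc17a6 (7.09 FPKM), Onecut1 (0.0422), Lhx1 (0.974), Slc1a3 (14.1) and Aqp4 (12.3) were the lowest of all libraries. Pou4f1 and Pou4f2 lay within the wild-type range. Rod and cone sums lay within the wild-type ranges. Changes between the groups are therefore given with all libraries and, for the members named, also without db/db 1.

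Summed over the 49 members, the 5 wild-type libraries held 882 ± 19.6 FPKM (SD) and the 4 db/db libraries 850 ± 50.1 FPKM (SD), or 874.5 ± 14.3 FPKM (SD) without db/db 1. Kcnj14 and Kcnv2 made up 35.0% of the members' mean levels. A mean between 10 and 50 FPKM was found in 15 members, 8 had one between 5 and 10, 15 between 2 and 5, and 8 between 1 and 2. The spread was small in most: the coefficient of variation among wild-type libraries ran from 1.85% (Kcnt1) to 23.1% (Kcnk12 and Kcnip2).

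**Figure D1:**
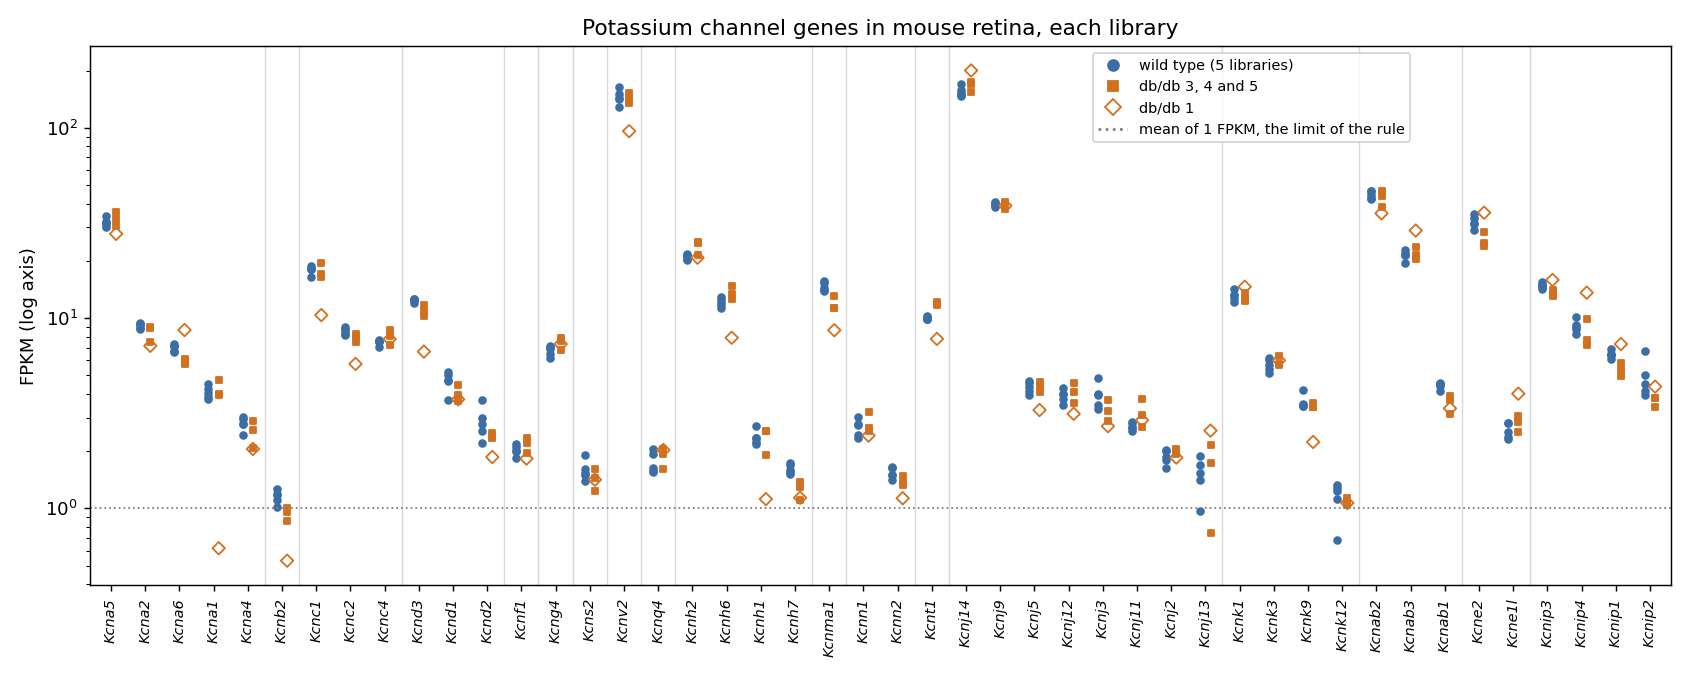
Expression (FPKM, log axis) of 46 of the 49 members in every library, in order of subfamily and then of mean level; circles are the 5 wild-type libraries, squares db/db 3, 4 and 5, open diamonds db/db 1, and the dotted line is 1 FPKM. Kcnv2 and Kcnj14 stand above the rest, and the diamond lies below all other points in 21 of the members drawn and above them in 10.

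Kcnv2 was at 142, 129, 143, 164 and 151 FPKM in wild type 1 to 5, and at 96.0, 135, 153 and 143 FPKM in db/db 1, 3, 4 and 5. Library db/db 1 was the lowest of all 9 libraries, and the remaining db/db values lay within the wild-type range. The log2 change was -0.16 (SE 0.13, limma adjusted p = 0.515), with a 95% interval of the fold of 0.727 to 1.10. Leaving out db/db 1 brought the change close to 0 (-0.02).

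Kcnj14, which encodes the inward rectifier Kir2.4, was the most abundant member. Its values were 146, 171, 153, 149 and 157 FPKM in wild type and 200, 174, 155 and 170 FPKM in db/db. The groups overlapped, and db/db 1 was the highest library. The log2 change was 0.17 (SE 0.09, adjusted p = 0.318), and 0.10 without db/db 1 (adjusted p = 0.323). The wild-type ranges of Kcnj14 and Kcnv2 overlapped, so the order of the pair is within the spread.

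Among the voltage-gated Kv1 genes, Kcna5 (Kv1.5) was highest, with 32.0 ± 1.61 FPKM (SD) over 5 wild-type libraries against 31.9 ± 3.67 FPKM (SD) over 4 db/db libraries. Kcna2 and Kcna6 followed at means of 8.67 and 6.82 FPKM over all libraries. Of the Kv3 genes, which give fast-spiking neurons their rapid repolarization, Kcnc1 stood at 17.0 FPKM and Kcnc2 and Kcnc4 at 8.0 and 7.7 FPKM. All 3 Kv4 genes, which carry transient A-type current, were members, with Kcnd3 at 11.3 FPKM above Kcnd1 (4.34 FPKM) and Kcnd2 (2.58 FPKM). Of the ether-a-go-go genes, Kcnh2 (ERG1) and Kcnh6 (ERG2) stood at 21.9 and 12.1 FPKM. Of 10 silent Kv genes in the table only 4 were members, and beside Kcnv2 these were low: Kcng4 at 7.02, Kcnf1 at 2.05 and Kcns2 at 1.51 FPKM.

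Among inward rectifiers other than Kcnj14, the G protein-gated subunit gene Kcnj9 (GIRK3) had 39.5 FPKM and varied least of these, with 39.6 ± 0.916 FPKM (SD) over the wild-type libraries and 39.4 ± 1.51 FPKM (SD) over the db/db libraries. The G protein-gated partners Kcnj5 and Kcnj3 were at 4.22 and 3.57 FPKM, and Kcnj11, the pore of the ATP-sensitive channel, was at 2.89 FPKM. Only 4 of 13 tandem-pore genes were members, led by Kcnk1 (TWIK1, 13.2 FPKM) and Kcnk3 (TASK1, 5.79 FPKM). The calcium-activated BK channel gene Kcnma1 was at 13.1 FPKM, and none of the 4 BK beta subunit genes reached 1 FPKM (Kcnmb2, 0.726 FPKM). The sodium-activated channel gene Kcnt1 (Slack) was at 10.4 FPKM, and the small-conductance genes Kcnn1 and Kcnn2 at 2.68 and 1.44 FPKM.

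Auxiliary subunits made up 15.8% of the summed level. Kcnab2 and Kcnab3, cytoplasmic beta subunits of Kv1 channels, stood at 42.9 and 22.4 FPKM. Kcne2, a small membrane-spanning subunit that joins several Kv channels, was at 30.4 FPKM. Of the KChIP genes, calcium-binding partners of Kv4 channels, Kcnip3 (also the transcription repressor DREAM) was at 14.5 FPKM, and Kcnip4, Kcnip1 and Kcnip2 at 9.30, 6.18 and 4.41 FPKM.

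The comparison asked which potassium channel genes differ in level between db/db and wild-type retina. With all 9 libraries, 0 of the 49 members passed an adjusted p of 0.05 in limma, against 0.500% of all 14588 genes tested (0.233% higher and 0.267% lower). In limma-voom on recovered reads 0 members passed, against 0.759% of all genes. At an unadjusted p under 0.05 there were 6 members (12.2%), all lower in db/db, where 19.3% of all genes passed (9.91% lower). The smallest adjusted p of any member was 0.0855. The median log2 change was -0.09 over the members and 0.0035 over all genes. Of the members, 32 were below 0 and 17 above (65.3% below, against 49.3% of all genes). Without db/db 1 the median was -0.02 for both, and the members divided into 30 below 0 and 19 above. The share below 0 was then 61.2%, against 54.3% of all genes. After correction for GC content with all libraries, 40 members were below 0 (81.6%, against 50.05% of all genes). With that correction and without db/db 1, 34 members were below 0 (69.4%, against 49.6% of all genes). In bulk tissue, fewer cells of a type and less RNA per cell cannot be told apart.

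**Figure D2:**
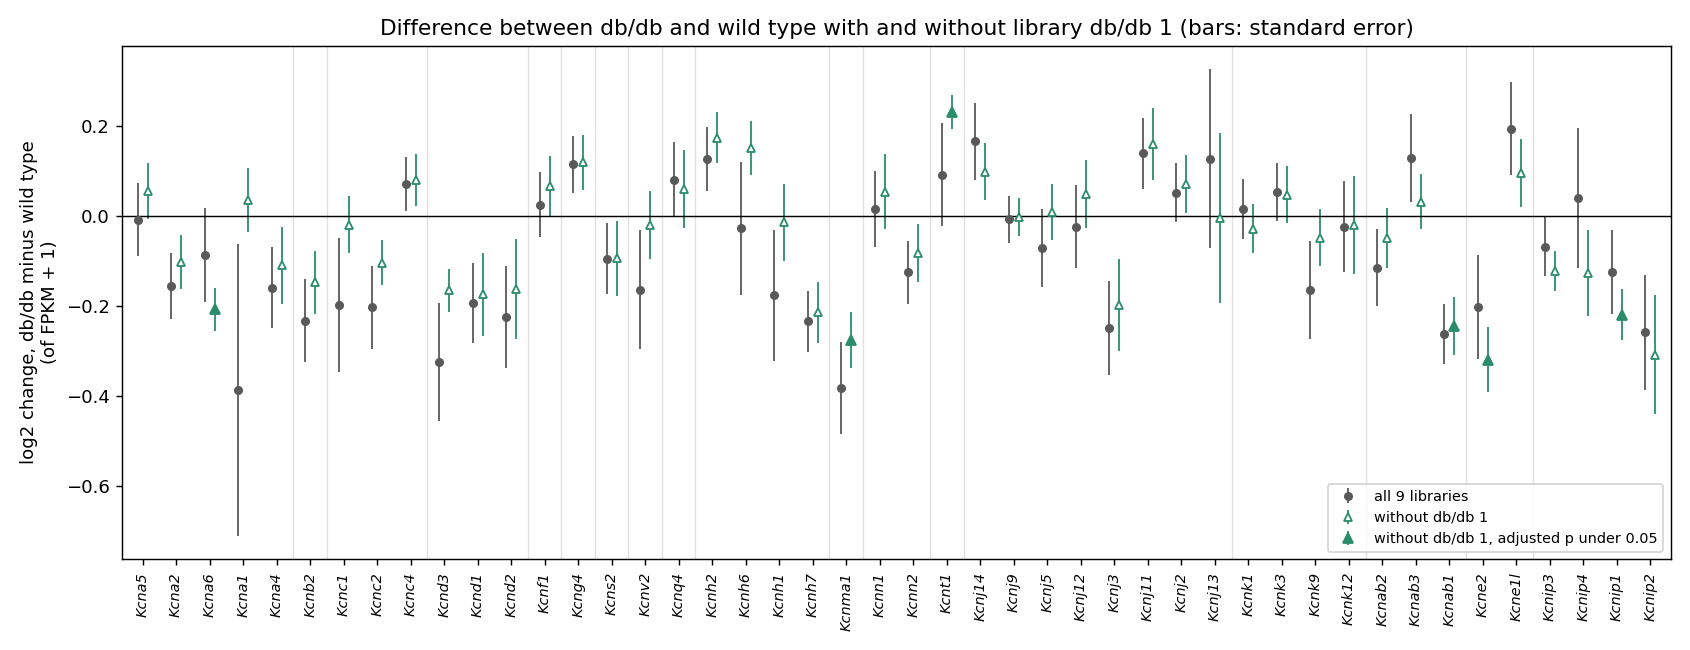
Difference between db/db and wild type for 46 members on the log2(FPKM + 1) scale, with standard errors; circles use all 9 libraries, triangles leave out db/db 1, and filled triangles mark an adjusted p under 0.05. With all libraries no member passed, and without db/db 1 Kcnt1 lay above 0 and Kcna6, Kcnma1, Kcnab1, Kcne2 and Kcnip1 below.

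In 5 members the 4 db/db values all lay below the 5 wild-type values, and in 0 members above; such separation in either direction occurred in 10.2% of members and in 11.6% of all genes (6.38% lower). These members were Kcnma1, Kcnab1, Kcnd3, Kcnh7 and Kcnb2. Kcnma1 encodes the pore of the BK channel, opened jointly by voltage and calcium, which in the retina acts at bipolar and amacrine cell synapses. It was at 14.4, 13.9, 15.3, 13.98 and 15.7 FPKM in wild type and at 8.64, 11.4, 13.1 and 11.3 FPKM in db/db. The highest db/db library was under the lowest wild-type library, and db/db 1 was the lowest of all. The log2 change was -0.38 (SE 0.10, limma adjusted p = 0.0979). In the remaining 8 libraries Kcnma1 was lower in db/db by a log2 change of -0.28 (SE 0.06, adjusted p = 0.0293). Once GC content was corrected for too, Kcnma1 did not pass (-0.22, adjusted p = 0.106).

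Kcnab1, a beta subunit that speeds the inactivation of Kv1 channels, stood at 4.56, 4.53, 4.48, 4.41 and 4.13 FPKM in wild type and at 3.35, 3.89, 3.73 and 3.14 FPKM in db/db. Here db/db 1 lay among the other db/db libraries. It had the smallest adjusted p of the family (log2 change -0.26, SE 0.07, adjusted p = 0.0855). Leaving out db/db 1 gave an adjusted p of 0.0423, and correcting for GC content on top of that gave 0.107. The related beta subunit genes Kcnab2 and Kcnab3 had -0.11 and 0.13 (adjusted p = 0.480 and 0.485), and -0.05 and 0.03 without db/db 1.

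Kcnd3 encodes Kv4.3. Wild-type libraries were tightly grouped at 12.4, 11.96, 12.5, 12.5 and 12.6 FPKM, and db/db libraries were at 6.66, 10.3, 11.8 and 10.8 FPKM. The db/db values were lower in 4 of 4 libraries, by a log2 change of -0.32 (SE 0.13, adjusted p = 0.223) that was -0.16 without db/db 1 (SE 0.05, adjusted p = 0.0569). The other Kv4 genes, Kcnd1 (-0.19, adjusted p = 0.274) and Kcnd2 (-0.22, adjusted p = 0.309), also had negative changes, with groups that overlapped, and stood at -0.17 and -0.16 without db/db 1. Of the KChIP partners, Kcnip2 had -0.26 (limma adjusted p = 0.302), and -0.31 without db/db 1. Its wild-type values were 6.75 FPKM in wild type 1 and 3.95 to 4.99 FPKM in the other wild-type libraries. Without wild type 1 the change of Kcnip2 was -0.15 (limma adjusted p = 0.425).

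The last 2 separated members were low and long. Kcnh7 (ERG3) was between 1.51 and 1.73 FPKM in wild type and between 1.10 and 1.37 FPKM in db/db (log2 change -0.23, SE 0.07, adjusted p = 0.114). The change of Kcnh7 was -0.21 without db/db 1 (adjusted p = 0.0725), and -0.02 after GC correction of those 8 libraries. Kcnb2 (Kv2.2) was between 1.02 and 1.26 FPKM in wild type and between 0.530 and 1.01 FPKM in db/db (-0.23, SE 0.09, adjusted p = 0.216), with -0.15 without db/db 1 (adjusted p = 0.188) and 0.05 after GC correction of the same libraries. Transcript GC content was 39.6% in Kcnh7 and 39.3% in Kcnb2, against a median of 53.8% over the members and 49.8% over all genes. The correlation of each library's deviation from the wild-type mean with GC content, across all genes, was 0.18, 0.20, 0.29 and 0.50 in db/db 1, 3, 4 and 5, and -0.12 to 0.13 in wild type. Its part in these changes beyond that correction was not tested. Kcnj3 (GIRK1), the sixth member at an unadjusted p under 0.05, overlapped between the groups (-0.25, SE 0.10, adjusted p = 0.234; -0.20 without db/db 1); the antisense gene Gm26794 covers 31.1% of its exon bases.

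**Figure D3:**
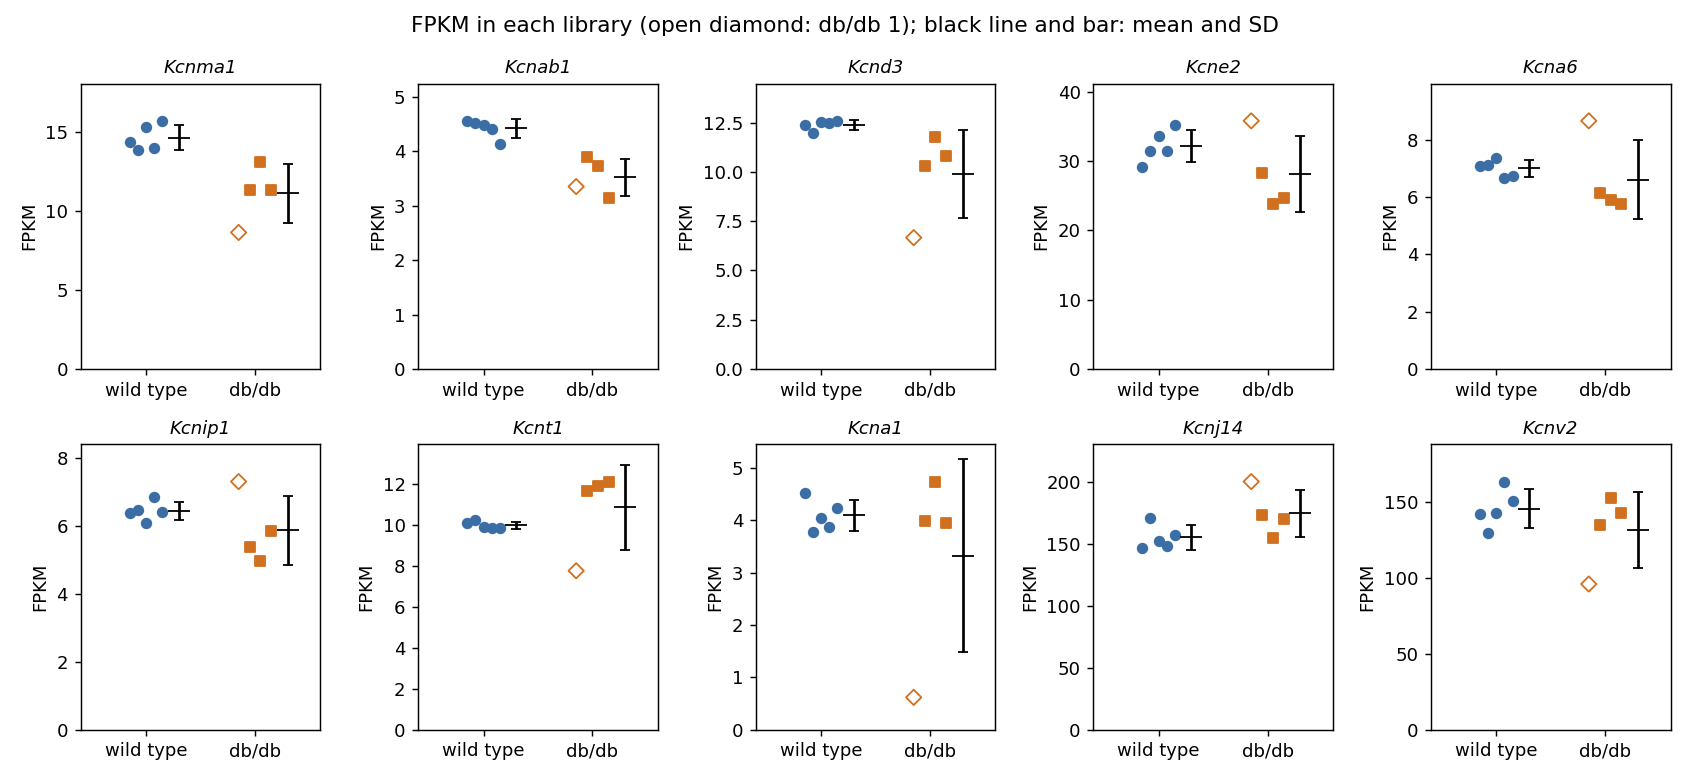
FPKM in each library for 10 members (vertical axes start at 0); circles are wild type, squares db/db 3, 4 and 5, the open diamond db/db 1, and black lines with bars the mean and SD of each group with all its libraries. In Kcnma1, Kcnab1 and Kcnd3 all 4 db/db points lie below the wild-type points, while in Kcnt1, Kcna6, Kcne2 and Kcnip1 db/db 1 lies on the opposite side from db/db 3, 4 and 5.

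Without db/db 1, 6 of the 49 members (12.2%) passed over all genes, 1 higher and 5 lower, where 10.6% of all genes passed (4.72% higher and 5.84% lower). The share is near that of all genes. The groups did not overlap in 11 members (22.4%), where 21.1% of all genes did not. Beside Kcnma1 and Kcnab1 the members were Kcnt1, Kcna6, Kcne2 and Kcnip1, and in these 4 the level in db/db 1 lay on the other side of the wild-type values. Kcnt1, the Slack channel that opens with internal sodium, was at 10.1, 10.3, 9.89, 9.85 and 9.85 FPKM in wild type and at 11.7, 11.9 and 12.1 FPKM in db/db 3, 4 and 5. In db/db 1 it was at 7.77 FPKM. The log2 change was 0.23 without db/db 1 (SE 0.04, adjusted p = 0.0137) and 0.09 with it (SE 0.11, adjusted p = 0.675). Kcnt1 also passed after GC correction of the same 8 libraries (0.20, adjusted p = 0.0314).

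Kcna6 (Kv1.6) was at 7.09, 7.13, 7.35, 6.67 and 6.73 FPKM in wild type, at 6.12, 5.91 and 5.74 FPKM in db/db 3, 4 and 5, and at 8.65 FPKM in db/db 1. It was lower by -0.21 on the log2 scale without db/db 1 (SE 0.05, adjusted p = 0.0302; 0.0452 after GC correction) and had -0.09 with all libraries (adjusted p = 0.663). Kcne2 was at 29.1, 31.4, 33.7, 31.4 and 35.2 FPKM in wild type, at 28.3, 23.8 and 24.7 FPKM in db/db 3, 4 and 5, and at 35.8 FPKM in db/db 1. Its change was -0.32 without db/db 1 (SE 0.07, adjusted p = 0.0296) and -0.20 with it (adjusted p = 0.364). Kcnip1 (KChIP1) had a wild-type mean of 6.43 ± 0.272 FPKM (SD, n = 5), 5.39 ± 0.436 FPKM (SD, n = 3) in db/db 3, 4 and 5, and 7.30 FPKM in db/db 1, with a change of -0.22 without db/db 1 (adjusted p = 0.0410) and -0.12 with it (adjusted p = 0.478). After GC correction, where 4.41% of all genes passed, Kcne2 (adjusted p = 0.0637) and Kcnip1 (adjusted p = 0.122) did not pass. All 4 KChIP genes had negative changes without db/db 1, where 54.3% of all genes were below 0, and of the 4 only Kcnip1 passed. Kcnip4 had 0.04 with all libraries, and 0.01 without db/db 1 after GC correction. Auxiliary subunits together summed to 137 to 143 FPKM in the wild-type libraries, 129, 124 and 129 FPKM in db/db 3, 4 and 5, and 149 FPKM in db/db 1.

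Of the members with larger positive changes, none passed with all libraries. Kcne1l, a KCNE-type subunit gene, had 0.19 (adjusted p = 0.335), Kcnj11 had 0.14 (adjusted p = 0.359), Kcnab3 had 0.13 (adjusted p = 0.485) and Kcnh2 had 0.13 (adjusted p = 0.351). With db/db 1 left out, Kcne1l dropped to 0.10 and Kcnab3 to 0.03, while Kcnj11 had 0.16 and Kcnh2 0.17 (adjusted p = 0.211 and 0.0785). Kcnj13 (Kir7.1), a channel of the pigment epithelium's apical membrane, had 0.13 (SE 0.20, adjusted p = 0.742), and -0.0044 without db/db 1. Its level was 1.88, 1.54, 0.967, 1.68 and 1.42 FPKM in wild type and 2.56, 1.73, 0.746 and 2.15 FPKM in db/db. The pigment epithelium markers summed to 179, 131, 122, 154 and 107 FPKM in wild type 1 to 5 and to 375, 180, 68.1 and 190 FPKM in db/db 1, 3, 4 and 5; both were highest in db/db 1 and lowest in db/db 4. All 5 markers were in the table and none was at 0. Their part in the values of Kcnj13 was not tested. Gigyf2 (mean 11.7 FPKM) covers 49.1% of the exon bases of Kcnj13 on the opposite strand, and the strand of counting is not given in the sources used here, so these reads may not be fully separate.

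For several members the interval bounds the difference closely. The 95% interval of the fold was 0.917 to 1.08 for Kcnj9, 0.910 to 1.12 for Kcnk1 and 0.876 to 1.13 for Kcna5, with log2 changes of -0.01, 0.02 and -0.01. Among the highest members of other subfamilies the log2 changes were 0.12 (Kcng4, adjusted p = 0.343), 0.03 (Kcnf1, 0.864), 0.02 (Kcnn1, 0.928), -0.07 (Kcnip3, 0.584) and -0.09 (Kcns2, 0.527) with all libraries. The same members had 0.12, 0.07, 0.05, -0.12 and -0.09 without db/db 1, where Kcnj9, Kcnk1 and Kcna5 had -0.0020, -0.03 and 0.06. By subfamily, all 5 Kv1 and all 3 Kv4 members were below 0 with all libraries, with medians of -0.15 and -0.22. All Kv4 members tested stayed below 0 under each of the 24 alternatives (1 of them alone passed the filter at 5 FPKM). The Kv1 count dropped to 3 of 5 without db/db 1, with array weights or with length correction, and to 4 of 5 without db/db 3, without wild type 5, or with GC correction and without db/db 1. The Kir members divided evenly, 4 above and 4 below, as did the tandem-pore members (2 and 2); leaving out db/db 1 gave 5 above and 3 below, and 1 above and 3 below.

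Library db/db 1 was lower than all other libraries in 24 of 49 members (49.0%; 30.1% of all genes) and higher than all in 10 (20.4%; 41.3% of all genes). The lowest relative value was that of Kcna1 (Kv1.1, a channel of axons and presynaptic terminals). Kcna1 was at 4.52, 3.77, 4.05, 3.87 and 4.24 FPKM in wild type, at 3.99, 4.74 and 3.94 FPKM in db/db 3, 4 and 5, and at 0.617 FPKM in db/db 1, which is 0.154 of the median of the others. Its log2 change of -0.39 (SE 0.32, adjusted p = 0.528) rests on that library and was 0.04 without it. Kcna1 lies between Kcna5 and Kcna6 on chromosome 6, from 126532551 (start of Kcna5) to 126740674 (end of Kcna6), and these neighbours stood at 0.867 and 1.29 of the median of the others in db/db 1. Kcna3, outside the limit, was at 0.0228 FPKM in db/db 1 and at 0.544 to 1.23 FPKM elsewhere.

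Across the 49 members, the deviation of db/db 1 from the median of the other 8 libraries correlated with the log2 length of the longest transcript (Pearson r = -0.59, Spearman rho = -0.69) and weakly with GC content (r = 0.14). The same correlation with length was -0.36 (rho = -0.54) over 14490 genes. Genes of 1 library share its preparation, so these values are descriptions. The members' longest transcripts had a median of 4221 bases against 3038 bases over all genes. Of the 9 auxiliary members, 6 were higher in db/db 1 than in all other libraries, against 4 of the 40 pore-forming or silent members, and their median deviation in db/db 1 was 0.20.

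**Figure D4:**
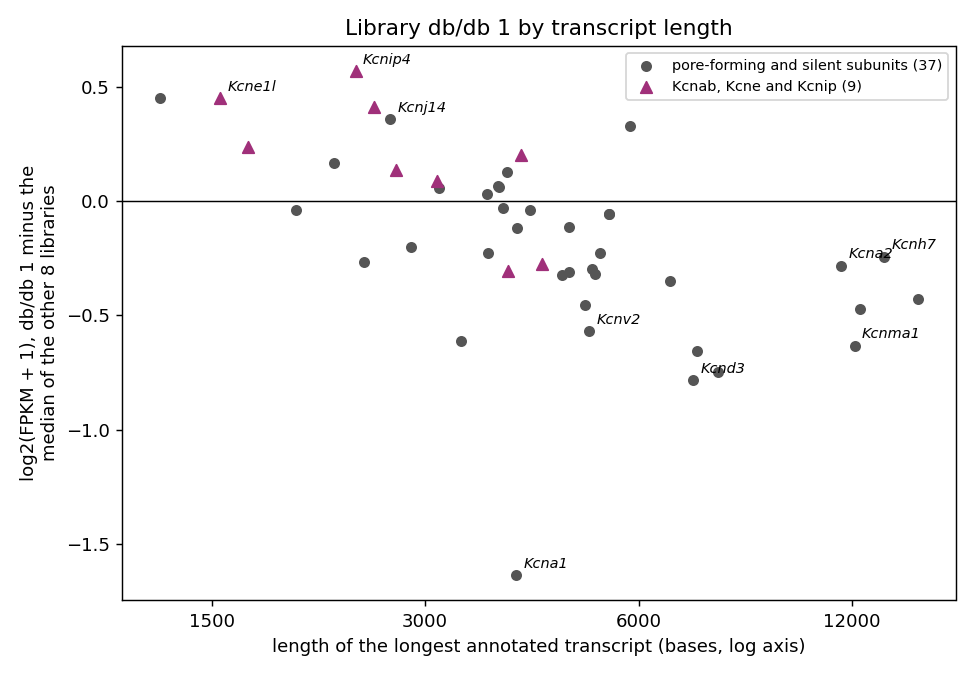
Deviation of db/db 1 from the median of the other 8 libraries, log2(FPKM + 1), for 46 members against the length of its longest annotated transcript (bases, log axis); triangles are the auxiliary families Kcnab, Kcne and Kcnip. Most members with long transcripts such as Kcnd3 and Kcnma1 lie below 0, several short ones such as Kcne1l and Kcnip4 above, and Kcna1 lies apart at the bottom.

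Other genes of potassium handling were counted from a list of 42 that covers pumps, cotransporters, exchangers, HCN channels and channel partners; 36 were tested and 6 lay below 1 FPKM. None of the 36 passed an adjusted p of 0.05 with all libraries, where 0.500% of all genes did. At an unadjusted p under 0.05 there were 6 (16.7%), where 19.3% of all genes passed. The median log2 change of the 36 was -0.04 with all libraries and 0.01 without db/db 1. The smallest p was that of Abcc9, the sulfonylurea receptor SUR2 that partners Kir6 channels, with a wild-type mean of 1.43 ± 0.0851 FPKM (SD, n = 5) and 0.8396 ± 0.1505 FPKM (SD, n = 4) in db/db (-0.40, SE 0.08, adjusted p = 0.0565). Next came Slc24a2, a potassium-dependent sodium-calcium exchanger of cones (-0.40, adjusted p = 0.109; -0.30 without db/db 1), and the scaffold gene Dlg1 (-0.24, adjusted p = 0.173; -0.15 without db/db 1). In the fit without db/db 1, 3 of the 36 were higher and 2 lower (13.9% together, where 10.6% of all genes passed). The higher ones were Hcn3 (0.26, adjusted p = 0.0272), Abcc8, the SUR1 partner of Kcnj11 (0.22, 0.0455), and the chloride-extruding cotransporter Slc12a5 (0.22, 0.0210). The lower ones were Abcc9 (-0.34, 0.0182) and Fxyd6, a regulator of the sodium pump (-0.30, 0.0146). After GC correction of the same 8 libraries Abcc9 and Fxyd6 passed (adjusted p = 0.0478 and 0.0306), and Hcn3, Abcc8 and Slc12a5 did not (0.0993, 0.1997 and 0.216). With all libraries Hcn3 had 0.18, Abcc8 0.12, Slc12a5 0.07 and Fxyd6 -0.09 (adjusted p = 0.284, 0.527, 0.768 and 0.767). Library db/db 1 was the lowest of all for Abcc8 and Slc12a5 and the highest for Fxyd6. The pump subunit gene Atp1b2 stood at 403 FPKM, with a log2 change of -0.06 (adjusted p = 0.726), and 0.01 without db/db 1.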

How the data were processed

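The starting point was a table of FPKM values that the authors deposited, with 35397 genes named by Ensembl identifiers and 9 retina libraries. Per the labels' protocols, RNA was purified on a Qiagen column and libraries were built with a SMARTER mRNA kit. The submitters' processing notes name the build mm10; aligner, counter and strand setting: not given in the sources used here. Columns named Control or DR were assigned to the library of that genotype with the same number, an inference from the names. Symbols came from GENCODE M21, which named 34499 identifiers. Multiplying FPKM by union exon length recovered reads: 98.9% to 99.1% of values under 40 reads were whole within 0.1 read.

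Values were tested as log2(FPKM + 1) in limma 3.58.1 (R 4.3.3, eBayes with a trend, two-sided, no covariate) on the 14588 genes whose mean reached 1 FPKM. Fold changes of low genes are thus understated. P-values were adjusted by Benjamini-Hochberg across every gene tested. Steps were tested on simulated data. For the main fit, both groups were drawn with the wild-type spread and no library was set apart. That test therefore does not cover a library such as db/db 1. The members, lists and naming rule were chosen with earlier results of these data known. Named with full values were the highest member of each subfamily, the 5 largest and 5 most negative changes, members past an adjusted p of 0.05 without db/db 1, and Kcnv2, Kcna1, Kcnj13, Kcnj14 and Kcnma1. Other members, and Hcn3, Abcc8, Slc12a5, Fxyd6 and Atp1b2, were picked with their values in view. Of the 49 members 3 are counted in all totals but are not reported here by name, nor are some genes of the other list. Alternatives were other scalings, filters, a pseudocount of 0.1, variance settings, weights, a replicate block, corrections in 20 bins of GC content or length, limma-voom and leaving out libraries. Figures were drawn with matplotlib 3.10.9.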

Additional observations from a re-analysis of the deposited data

Results flagged for a closer look

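A test for a library far from the rest of its group, run on 92 groups of values (46 members in wild type and in db/db), marked 4; chance marks about 1 in 20 groups. In 3 of them the library was db/db 1. It was lowest of the db/db group for Kcnt1 (7.77 FPKM, next 11.7) and Kcnk9 (2.23 FPKM, next 3.41), and highest for Kcna6 (8.65 FPKM, next 6.12). Kcnk9, a tandem-pore gene, was also highest in wild type 1 among wild-type libraries (4.18 FPKM, next 3.55).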

How the results depend on the processing

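With all 9 libraries 0 members were higher and 0 lower. Leaving out one library in turn gave 0 to 1 higher and 0 to 5 lower. The calls came with db/db 1 left out, where 4.72% of all genes were higher and 5.84% lower. Array weights, in which db/db 1 had a weight of 0.0648, gave 1 higher and 3 lower (550 and 656 of all 14588 genes). GC correction with db/db 1 left out gave 1 and 1 (358 and 286 of all genes). Omitting both db/db 1 and db/db 4 gave 1 and 2 (289 and 254 of all genes). After the length correction 0 were higher and 1 was lower (240 and 198 of all genes). The other alternatives left both counts at 0. With the replicate number as a block 0 were higher and 0 lower. Same-numbered libraries deviated together only weakly (correlations 0.0434, 0.0455, -0.18 and 0.134). The labels do not say whether the numbers pair the samples, and so few correlations cannot decide it.

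Of 567 values of the 24 named genes under 24 alternatives, 520 kept direction and side of the threshold, 16 newly passed and 31 changed sign, in 10 genes; 14 genes never changed sign. The cause was not tested. GC correction with db/db 1 left out changed the sign of Kcna1 (0.0489), Kcnab3 (-0.0031), Kcnf1 (-0.0022), Kcnk1 (-0.0659), Kcnn1 (-0.0378) and Kcnv2 (0.0185). GC correction alone did so for Kcnf1 (-0.0620), Kcnh2 (-0.0236), Kcnk1 (-0.0454) and Kcnn1 (-0.10), and length correction for Kcna6 (0.0348) and Kcnk1 (-0.0667). Array weights gave 0.0081 for Kcna1, 0.0528 for Kcna5 and -0.0346 for Kcnk1. Scaling to equal sums gave -0.0119 for Kcnk1 and -0.0030 for Kcnn1. Quantile normalization gave -0.0179 for Kcnk1. Omitting db/db 1 and 4 gave -0.0021 for Kcnk1, and the replicate block -0.0151 for Kcnn1. Leaving out one library in turn gave -0.573 to 0.0356 for Kcna1, -0.0699 to 0.0556 for Kcna5, -0.0143 to 0.0670 for Kcnf1, -0.0044 to 0.338 for Kcnj13, -0.0279 to 0.0474 for Kcnk1 and -0.0474 to 0.0545 for Kcnn1.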

Other observations

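Several Kcn genes below 1 FPKM were higher in wild type 1 than in any other library. Kcnj4 was at 1.77 FPKM there and at 0.316 to 0.731 FPKM in the other 8 libraries, Kcnh3 at 0.886 FPKM against 0.0782 to 0.207 FPKM, Kcnv1 at 0.355 FPKM against 0.0284 to 0.153 FPKM, and Kcnq5 at 0.535 FPKM against 0.110 to 0.202 FPKM. Among the members, wild type 1 was the highest of all 9 libraries in 10, against 7.53% of all genes. These genes were chosen after their values were seen.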
